A study of Mus musculus with 6 samples.

Results

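Albumin (Alb) and 5 other plasma proteins that hepatocytes secrete were followed at the RNA level in bulk liver: transthyretin (Ttr), retinol-binding protein 4 (Rbp4), the vitamin D-binding protein (Gc), afamin (Afm) and fetuin-A (Ahsg). These genes were chosen by their symbols, and all 6 were among the 20140 genes of the deposited raw count table and among the 16370 that passed edgeR's filter on low counts. RNA was sequenced from 6 livers collected on day 21, 2 in each of 3 groups. The sham mice carry the label PBS where the others carry that of a tumor cell line, the premetastatic niche (PMN) mice carried CT26 cells implanted orthotopically in the cecum, and the metastasis mice had CT26 cells injected into the spleen. CT26 cells are an established colorectal carcinoma line of the mouse, and BALB/c is the strain named for their use in both models. The labels give the groups as control (with libraries named sham), intra-C and intra-S, so the names of the tumor models were taken from the study's account of its models, and the route of implantation and the group changed together. No group carried a transgene or a deletion that the labels or methods name. Polyadenylated RNA of all liver cells went into the libraries, so that each value sums over hepatocytes and every other cell of the tissue. In the metastasis livers these can include CT26 cells. Fewer cells of a type and less RNA per cell cannot be told apart.

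In the acute phase response, inflammatory cytokines make hepatocytes secrete more of some plasma proteins, the positive acute phase proteins, and less of others, the negative ones, of which albumin, transthyretin and retinol-binding protein 4 are the textbook examples. Albumin carries fatty acids, hormones and drugs and holds water in the blood vessels. Transthyretin carries thyroid hormone and, bound to retinol-binding protein 4, holds the retinol carrier in the circulation. The vitamin D-binding protein also binds free actin, afamin binds vitamin E, and fetuin-A binds calcium phosphate and keeps it from precipitating in blood.

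With all 6 livers in edgeR's fit, the main test here, 1 carrier was called, and it rose. Ahsg was about 2-fold higher in the PMN livers and 2.56-fold higher in the metastasis livers. In the latter it passed the test, as did 10.7% of all genes tested. Ttr and Rbp4 were lower in the PMN livers than in the sham livers, at 0.554 and 0.653 of the sham level. Neither passed the threshold after adjustment in edgeR's fit. In the PMN livers DESeq2 on the same 6 livers called Ttr lower (adjusted p = 0.00224) and Ahsg higher (adjusted p = 0.000395). It called 1049 lower and 1662 higher of all genes there. In the metastasis livers Ttr and Rbp4 were near the sham level on TMM-scaled values (0.912 and 1.05 of it). On the deposited TPM they were below it in both livers. None of Alb, Gc and Afm passed the test in any comparison of edgeR's fit.

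In RefSeq's annotation of GRCm38.p6 (mm10), Alb lies on chromosome 5 from 90460870 to 90476602 (plus strand), Afm on the same strand from 90518949 to 90553544, and Gc on the minus strand from 89417511 to 89457898. Between Alb and Afm lies Afp, from 90490714 to 90508907, which encodes alpha-fetoprotein, the albumin of fetal blood. Alb, Afp, Afm and Gc form the albumin gene family. Afp begins 14111 bases after Alb ends, Afm begins 10041 bases after Afp ends, and Gc lies 1002971 bases before Alb. Ahsg is on chromosome 16 from 22892015 to 22899451 (plus strand) and Rbp4 on chromosome 19 from 38116620 to 38125321 (minus strand). Ahsg overlaps the gene model Gm30505, which had 54 to 289 counts in a liver where Ahsg had at least 263004. Whether counting used strand is not given in the sources used here.

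The start regions of the albumin family are shown because Afp was called higher in both tumor groups while Alb, Afm and Gc were not (values below). Each sequence runs 5′ to 3′ in the direction of the gene, from 250 bases before its annotated start through the first 50 bases, as RefSeq gives it for GRCm38.p6: chr5:90460620-90460919 for Alb, chr5:90490464-90490763 for Afp and chr5:90518699-90518998 for Afm, all on the plus strand, and chr5:89457849-89458148 on the minus strand for Gc. Capitals mark matches to GTTAAT, a short motif chosen for this search, on either strand, so that a match on the other strand reads ATTAAC.
Alb: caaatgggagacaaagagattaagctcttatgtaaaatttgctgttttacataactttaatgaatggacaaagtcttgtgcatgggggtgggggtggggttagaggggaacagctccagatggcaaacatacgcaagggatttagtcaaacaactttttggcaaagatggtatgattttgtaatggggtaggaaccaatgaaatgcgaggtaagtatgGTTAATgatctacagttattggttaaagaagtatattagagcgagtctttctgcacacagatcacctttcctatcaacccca
Afp: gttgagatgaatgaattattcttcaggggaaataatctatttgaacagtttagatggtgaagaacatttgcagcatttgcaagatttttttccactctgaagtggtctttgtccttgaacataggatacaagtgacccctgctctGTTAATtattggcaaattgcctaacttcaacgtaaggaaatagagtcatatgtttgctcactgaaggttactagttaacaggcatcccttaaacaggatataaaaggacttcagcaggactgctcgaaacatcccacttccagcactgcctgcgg
Afm: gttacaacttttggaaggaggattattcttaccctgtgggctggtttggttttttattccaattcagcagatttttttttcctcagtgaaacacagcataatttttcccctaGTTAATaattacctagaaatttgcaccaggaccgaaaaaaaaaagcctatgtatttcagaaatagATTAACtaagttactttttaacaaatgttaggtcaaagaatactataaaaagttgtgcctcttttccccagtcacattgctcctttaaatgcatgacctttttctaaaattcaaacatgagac
Gc: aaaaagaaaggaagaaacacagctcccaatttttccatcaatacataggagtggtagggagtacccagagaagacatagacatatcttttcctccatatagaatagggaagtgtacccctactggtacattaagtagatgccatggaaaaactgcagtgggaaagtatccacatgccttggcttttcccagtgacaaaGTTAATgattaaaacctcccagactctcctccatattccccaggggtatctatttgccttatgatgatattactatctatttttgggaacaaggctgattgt
The Alb, Afp and Gc regions each held 1 match to GTTAAT and the Afm region held 2, whereas 7.1% of 32851 RefSeq start regions of this length held at least 1. The Ahsg region and both annotated Rbp4 starts held 0, and Ttr was not among the 5 genes of the 6 with an entry. None of these regions held TTCNNNGAA, the element that STAT factors bind (8.3% of all regions), on either strand. No match to one pattern therefore overlapped a match to the other. A match is a description of letters and does not show that a factor binds there.

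Total counts lay between 32838321 and 43368309 per liver, which makes counting error small for genes of this abundance. Unless stated otherwise, values are CPM, the count of a gene relative to the total of its library, with totals scaled by TMM (factors 1.13 and 1.14 for sham and 0.884 to 0.989 for the other livers). Tests are edgeR's quasi-likelihood tests in a single fit over the 6 livers, with Benjamini-Hochberg adjustment over all genes tested and a call at an adjusted p under 0.05. Intervals are 95% intervals of the log2 fold change from the same fit. With 2 livers against 2, no two-sided permutation test can give a p below 0.333. When sham liver 1 or sham liver 2 was left out, edgeR called 0 genes in each comparison, so the calls given here need both sham livers. The livers of a group differed by more than sampling noise, and the chi-square divided by its degrees of freedom was 26.4 for sham, 77.4 for PMN and 363 for metastasis, so the metastasis livers stood furthest apart. The liver label was checked against 20 hepatocyte markers other than the carriers, all of which were tested and whose summed level was 39187 and 39396 CPM in sham, 34503 to 40488 in PMN and 31054 to 44941 in metastasis livers. Of these, 1 was called higher and 1 lower in PMN livers, and 1 higher and 4 lower in metastasis livers. Their median log2 fold change was -0.56 in PMN livers, with 14 of 20 below 0, and -0.04 in metastasis livers, with 10 of 20 below 0. Their share of all counts was 4.44% and 4.46% in sham, 3.67% and 3.4% in PMN and 3.97% and 3.07% in metastasis livers.

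On the scale that accounts for gene length, the deposited TPM, Alb was the most abundant gene of every liver, with 83475 to 134276 TPM. In the sham livers Ahsg followed with 9631 and 10686 TPM, then Ttr with 8703 and 9137, Rbp4 with 6559 and 6598, Gc with 5839 and 6008, and Afm with 506 and 532. The 2 livers of no neighboring pair in this order overlapped. In the PMN livers the order changed. Gc, at 6688 and 6732 TPM, now stood above Ttr, at 4142 and 4520, and Rbp4, at 3713 and 3819, while Ahsg had 16605 and 18605. In the metastasis livers Ahsg had 20980 and 21429 TPM and Ttr 6394 and 6833, and the levels of Rbp4 (4853 and 6283) and Gc (5470 and 5471) overlapped. Ttr was the 13th and 14th most abundant gene in the sham livers by TPM, the 34th and 38th in the PMN livers and the 20th and 24th in the metastasis livers. The 6 carriers together took 12.9% and 12.4% of all counts in sham, 13.4% and 10.6% in PMN and 16.8% and 13.7% in metastasis livers, and Alb made up 78.0% to 82.3% of that.

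**Figure D1:**
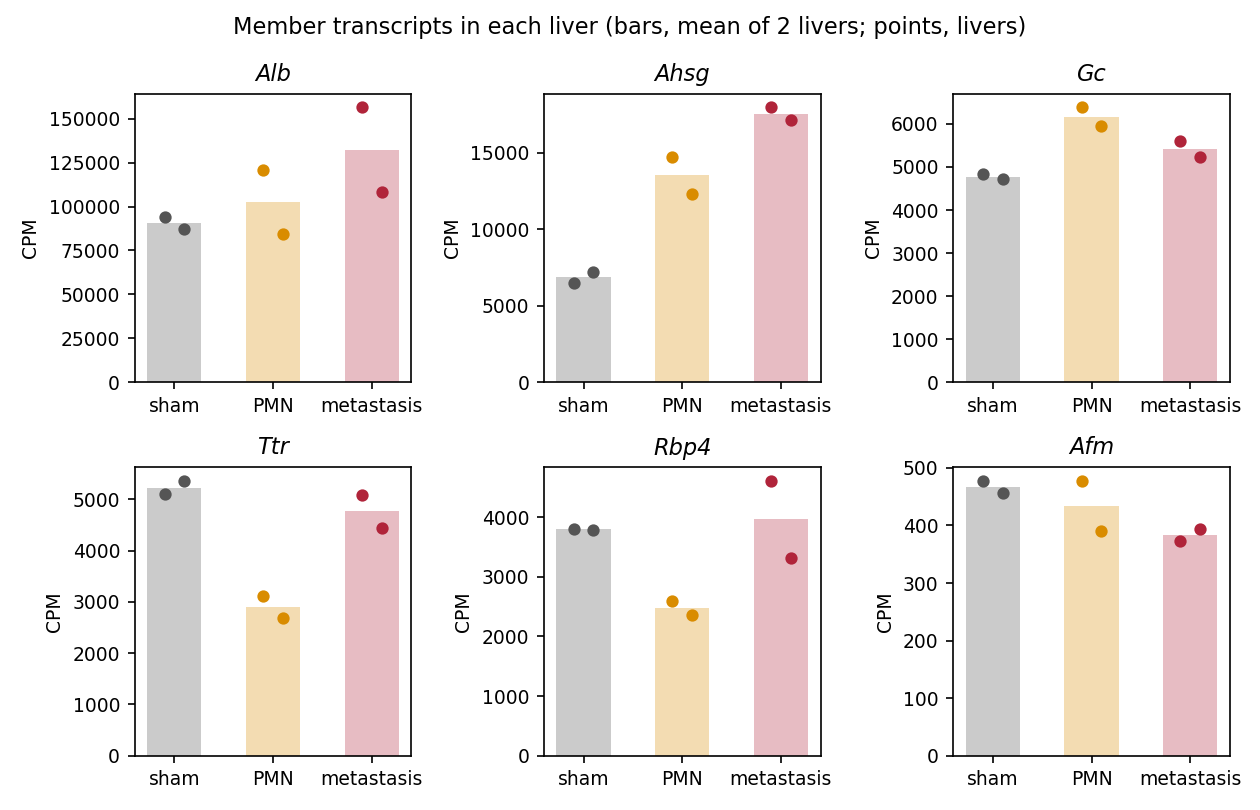
Level of each carrier gene in each liver, in CPM on TMM-scaled totals (vertical axis, starting at 0 and different for each gene), for sham, PMN and metastasis livers. Points are livers and bars are means of 2 livers. Ahsg was lowest in the sham livers (6480 and 7208 CPM), and Ttr and Rbp4 were lowest in the PMN livers.

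Fetuin-A was the carrier that passed the test. Ahsg had 6480 and 7208 CPM in sham, 14749 and 12329 CPM in PMN and 17974 and 17132 CPM in metastasis livers. The 3 groups did not overlap, and both tumor groups stood above sham. In the metastasis livers the mean was 17553 ± 595 CPM against 6844 ± 515 CPM in sham (SD, n = 2 each). The log2 fold change was 1.36 (standard error 0.23, 95% interval 0.80 to 1.92, edgeR adjusted p = 0.0215). It was called, as were 10.7% of all genes tested in that comparison (6.78% higher and 3.95% lower). In the PMN livers the mean was 13539 ± 1712 CPM, with a log2 fold change of 0.98 (standard error 0.23, interval 0.43 to 1.54) and an edgeR adjusted p of 0.0557, just outside the threshold. This rise had the same direction in all 18 alternative analyses and was called in 5 of them, DESeq2 included (adjusted p = 0.000395). Between metastasis and PMN livers the log2 fold change was 0.37 (interval -0.18 to 0.93, adjusted p = 0.499). The rise in metastasis livers had the same direction in all 18 alternative analyses and was called in 10 of them. The call was lost without sham liver 1 or 2 (adjusted p = 0.21 and 0.183), without PMN liver 1 or 2 (0.0632 and 0.0643), with only the sham and metastasis livers in the fit (0.0751) and in the 3 analyses of TPM values (0.0896 to 0.163).

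Ttr was the carrier that was lowest in the PMN livers relative to sham. The gene lies on chromosome 18 from 20664209 to 20674326 (plus strand), where it overlaps the gene model Gm16090, which had 0 to 7 counts. Ttr had 5097 and 5365 CPM in sham, 3120 and 2677 CPM in PMN and 5096 and 4450 CPM in metastasis livers. Both PMN livers stood below all other livers, whereas metastasis liver 1 was within 2 CPM of the lower sham liver. In the PMN livers the log2 fold change was -0.85 (standard error 0.22, interval -1.39 to -0.32, unadjusted p = 0.00743, edgeR adjusted p = 0.0706). It was negative in all 18 alternatives and called in 5, with adjusted p-values from 0.00224 with DESeq2 to 0.407 without sham liver 2. In the metastasis livers the log2 fold change was -0.13 (interval -0.66 to 0.40, adjusted p = 0.726), although on the TPM scale (above) both metastasis livers stood below both sham livers. Directly compared, the metastasis livers had more Ttr than the PMN livers by a log2 fold change of 0.72 (interval 0.19 to 1.25, unadjusted p = 0.0157, edgeR adjusted p = 0.308). DESeq2 called this difference (adjusted p = 0.0499), among 234 higher and 272 lower of all genes, where edgeR called 0.

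Rbp4, whose protein travels in a complex with transthyretin, had a similar course. Its levels were 3803 and 3790 CPM in sham, 2593 and 2361 CPM in PMN and 4611 and 3323 CPM in metastasis livers. The PMN livers were again below all others, and the metastasis livers lay on either side of the sham livers on this scale. On TPM, both metastasis livers (6283 and 4853) were below both sham livers (6598 and 6559). In the PMN livers the log2 fold change was -0.62 (standard error 0.24, interval -1.20 to -0.03, unadjusted p = 0.0425, edgeR adjusted p = 0.169), and in the metastasis livers it was 0.06 (interval -0.52 to 0.65, adjusted p = 0.886). Between metastasis and PMN livers it was 0.68 (interval 0.09 to 1.27, unadjusted p = 0.0297, edgeR adjusted p = 0.341). Without metastasis liver 2, this last contrast passed for Ttr and Rbp4 (adjusted p = 0.0114 and 0.00591), and for Rbp4 this was 1 of 18 alternatives. Both carriers were also called lower in PMN than in sham livers when either metastasis liver was left out of the fit (adjusted p = 0.00315 and 0.00372 for Ttr, 0.00731 and 0.00824 for Rbp4) or when only PMN and sham livers were fitted (0.00535 and 0.0111). Those 3 fits called 2112, 2089 and 2223 of all genes lower, against 389 in the fit of 6 livers, and the fit without metastasis liver 2 called 1312 genes higher in metastasis than in PMN livers, against 0. Other values moved with the low Ttr and Rbp4 of the PMN livers. The share of counts from mitochondrial genes was 5.60% and 5.34% in sham, 2.93% and 2.45% in PMN and 5.62% and 3.02% in metastasis livers, so that metastasis liver 1 was near sham and metastasis liver 2 near PMN. The median log2 fold change of the hepatocyte markers in PMN livers (-0.56) lay close to that of Rbp4 (-0.62). The part of either in the levels of Ttr and Rbp4 was not tested.

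No change of albumin RNA passed the test. Alb had 94260 and 87423 CPM in sham, 120678 and 84369 CPM in PMN and 156594 and 108439 CPM in metastasis livers. The PMN livers fell on either side of the sham livers, whereas both metastasis livers were above them and 1.44-fold apart. On TPM, metastasis and sham livers overlapped. The log2 fold change was 0.17 in PMN livers (standard error 0.32, interval -0.58 to 0.93, adjusted p = 0.763) and 0.54 in metastasis livers (standard error 0.32, interval -0.21 to 1.30, adjusted p = 0.296). Both intervals hold 0. The direction in PMN livers turned with the scaling, to -0.10 on unscaled library sizes, and in metastasis livers Alb was called higher when metastasis liver 2 was left out (log2 fold change 0.79, adjusted p = 0.0222), in a fit that called 3010 of all genes higher, against 1110 with all 6 livers.

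Neither the vitamin D carrier nor the vitamin E carrier passed the test. Gc had 4838 and 4714 CPM in sham, 6388 and 5943 CPM in PMN and 5610 and 5234 CPM in metastasis livers. The groups did not overlap, with PMN highest, but on TPM both metastasis livers (5471 and 5470) were below both sham livers (6008 and 5839). On TMM-scaled counts the log2 fold changes against sham were 0.37 in PMN livers (interval -0.14 to 0.87, adjusted p = 0.313) and 0.18 in metastasis livers (interval -0.32 to 0.69, adjusted p = 0.596), and the latter was above 0 in 14 of 18 alternatives. In PMN livers Gc was called only when metastasis liver 1 or 2 was left out (adjusted p = 0.0345 and 0.0388), in fits that called 2546 and 2502 of all genes higher, against 806 with all 6 livers. Afm had 478 and 456 CPM in sham, 477 and 391 CPM in PMN and 374 and 394 CPM in metastasis livers. On this scale both metastasis livers, but not both PMN livers, were below the sham livers, whereas on TPM the PMN livers were too (451 and 394, against 532 and 506 in sham). The log2 fold change in metastasis livers was -0.28 (interval -0.78 to 0.21, adjusted p = 0.401), against -0.11 in PMN livers (interval -0.60 to 0.39, adjusted p = 0.781). Between metastasis and PMN livers, Gc differed by -0.19 and Afm by -0.18 (adjusted p = 0.715 and 0.722), and Alb by 0.37 (adjusted p = 0.624).

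**Figure D2:**
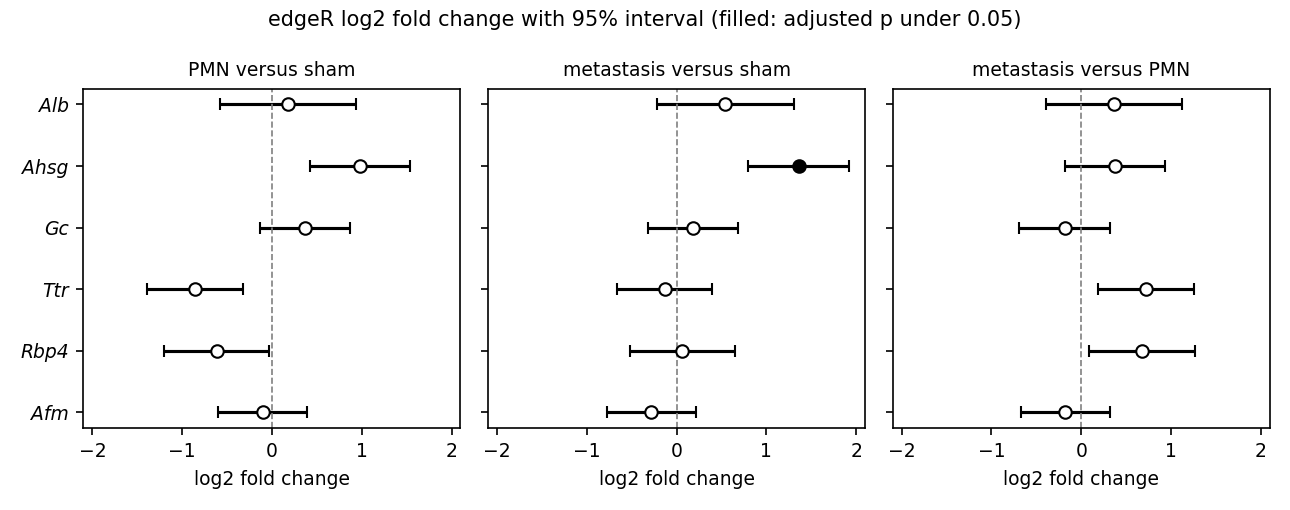
Log2 fold change of each carrier (horizontal axis) in the 3 comparisons, as points with 95% intervals from edgeR's fit over 6 livers. The filled point, Ahsg in metastasis versus sham livers (1.36), is the only one with an adjusted p under 0.05. The intervals of Ttr and Rbp4 lie below 0 in PMN versus sham livers and above 0 in metastasis versus PMN livers.

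Counted over the 6 carriers, 0 were called in PMN versus sham livers, where 7.3% of all genes tested were called (4.92% higher and 2.38% lower), and 3 had an unadjusted p under 0.05 (Ttr, Rbp4 and Ahsg), against 27% of all genes. DESeq2 called Ahsg higher and Ttr lower there, among 1662 higher and 1049 lower of all genes. In metastasis versus sham livers, 1 was called, beside 10.7% of all genes tested (6.78% higher and 3.95% lower). There, 1 of the carriers and 30.2% of all genes had an unadjusted p under 0.05. In metastasis versus PMN livers 0 were called, as were 0% of all genes, while 2 carriers and 13.4% of all genes had an unadjusted p under 0.05. DESeq2 called Ttr higher in that comparison, among 234 higher and 272 lower of all genes. The livers did not overlap for 2 higher and 2 lower carriers in PMN versus sham livers (34.4% and 34% of all genes), for 3 higher and 2 lower in metastasis versus sham livers (30.4% and 30%), and for 3 higher and 1 lower in metastasis versus PMN livers (21.9% and 21.5%). The same tally on TPM, added after the data were seen, gave 2 higher and 3 lower (26.4% and 43.3% of all genes), 1 higher and 4 lower (20.5% and 43.7%), and 3 higher and 2 lower (17.1% and 26.4%). With the change of scale, Gc went from higher to lower in metastasis versus sham livers. The median log2 fold change of the carriers was 0.03, 0.12 and 0.37 in these comparisons, beside 0.01, 0.04 and 0.03 over all genes tested and 0.35, 0.51 and -0.10 over the 111 genes with a mean of at least 1000 CPM. With 1 liver left out at a time, the carriers' medians ranged from -0.18 to 0.24, from -0.025 to 0.26 and from 0.18 to 0.58. The comparisons with sham share the sham livers.

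Ratios of counts within a liver do not depend on how the libraries are scaled. Ahsg had 1.27 and 1.34 counts per Ttr count in sham, 4.73 and 4.61 in PMN and 3.53 and 3.85 in metastasis livers. The groups did not overlap, and PMN was highest. Per 100 Alb counts there were 5.41 and 6.14 Ttr counts in sham, 2.58 and 3.17 in PMN and 3.25 and 4.10 in metastasis livers. Both tumor groups were below sham in this ratio, metastasis included. The ratio of Rbp4 to Ttr stayed below 1, with 0.746 and 0.706 in sham, 0.831 and 0.882 in PMN and 0.905 and 0.747 in metastasis livers. Rbp4 per 100 Alb counts was below sham in every tumor liver, at 4.03 and 4.34 in sham, 2.15 and 2.80 in PMN and 2.94 and 3.06 in metastasis. With 2 livers a group, these ratios are descriptions with no test.

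**Figure D3:**
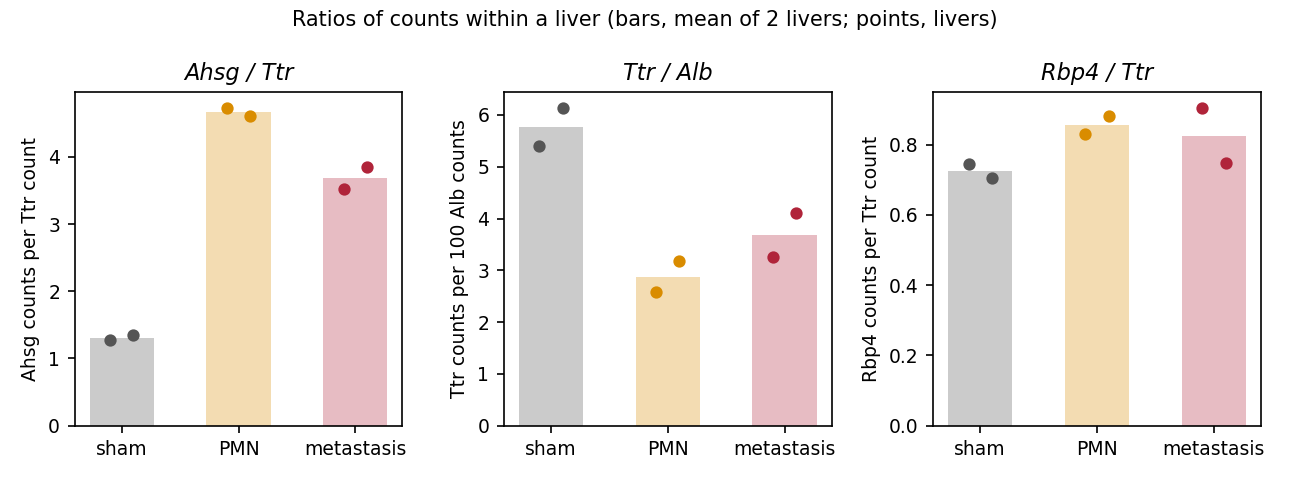
Ratios of raw counts within each liver (vertical axes, starting at 0): Ahsg per Ttr count, Ttr per 100 Alb counts and Rbp4 per Ttr count. Points are livers and bars are means of 2 livers. Ahsg per Ttr was 1.27 and 1.34 in sham livers and at least 3.53 in every tumor liver.

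Likeness between profiles was measured as the root mean square difference of log2 CPM over the 6 livers, after each gene was centered on its own mean, among 7260 genes with a mean of at least 10 CPM. Ttr and Rbp4 were the closest pair of carriers (0.133), and Ttr and Ahsg the furthest apart (0.799). The genes nearest to Ttr were Rarres2 (0.0590), which encodes the liver chemokine chemerin, and Cox7b (0.0594), a subunit of cytochrome c oxidase. Nearest to Rbp4 were Dars (0.0668), the aspartyl-tRNA synthetase, and Cycs (0.0676), cytochrome c. Nearest to Ahsg were Trf (0.0523), which encodes the iron carrier transferrin, and Leprot (0.0869). Nearest to Alb were 1600012H06Rik (0.0632) and Mfsd5 (0.0661), nearest to Gc were Tmx1 (0.0179) and Faf2 (0.0194), and nearest to Afm were Tenm3 (0.0376) and Macroh2a1 (0.0476). Genes with a nearly flat profile such as Gc have many close neighbors, so these distances describe the 6 livers only.

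Afp, which lies between Alb and Afm, rose in both tumor groups. It had 3.55 and 3.83 CPM in sham, 71.9 and 28.4 CPM in PMN and 273 and 164 CPM in metastasis livers. No groups overlapped, and metastasis livers were highest. The log2 fold change was 3.76 in PMN livers (standard error 0.51, edgeR adjusted p = 0.0154) and 5.89 in metastasis livers (standard error 0.56, adjusted p = 0.00579), against 0.17 and 0.54 for Alb, the neighbor before it, and -0.11 and -0.28 for Afm, the neighbor after it. At 149 and 231 TPM in the metastasis livers, Afp was still below Afm (327 and 369 TPM). In PMN livers the log2 fold change of Afp was 2.94 without PMN liver 1, where it was not called, and 4.31 without PMN liver 2. Whether Afp and its neighbors differ in their response was not tested between genes.

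Ahsg also has neighbors of its own family on chromosome 16, the cystatin superfamily, and 3 of these 4 rose in both tumor groups. Kng1 and Kng2, which encode kininogens, precursors of bradykinin, and Fetub (fetuin-B), which begins 18930 bases beyond Ahsg, are the 3. Kng1 had 2193 and 2427 CPM in sham, 9779 and 7051 in PMN and 7854 and 10262 in metastasis livers (log2 fold changes 1.87 and 1.97, edgeR adjusted p = 0.019 and 0.0139). The log2 fold changes of Fetub were 1.23 and 1.66 (adjusted p = 0.0464 and 0.0191), and those of Kng2 were 1.28 and 1.12 (adjusted p = 0.0382 and 0.0427). Hrg, which encodes the histidine-rich glycoprotein, was not called (0.74, adjusted p = 0.0982, in PMN livers, and -0.05, adjusted p = 0.907, in metastasis livers) and is named because it is the remaining gene of that list, a choice made after its values were seen.

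**Figure D4:**
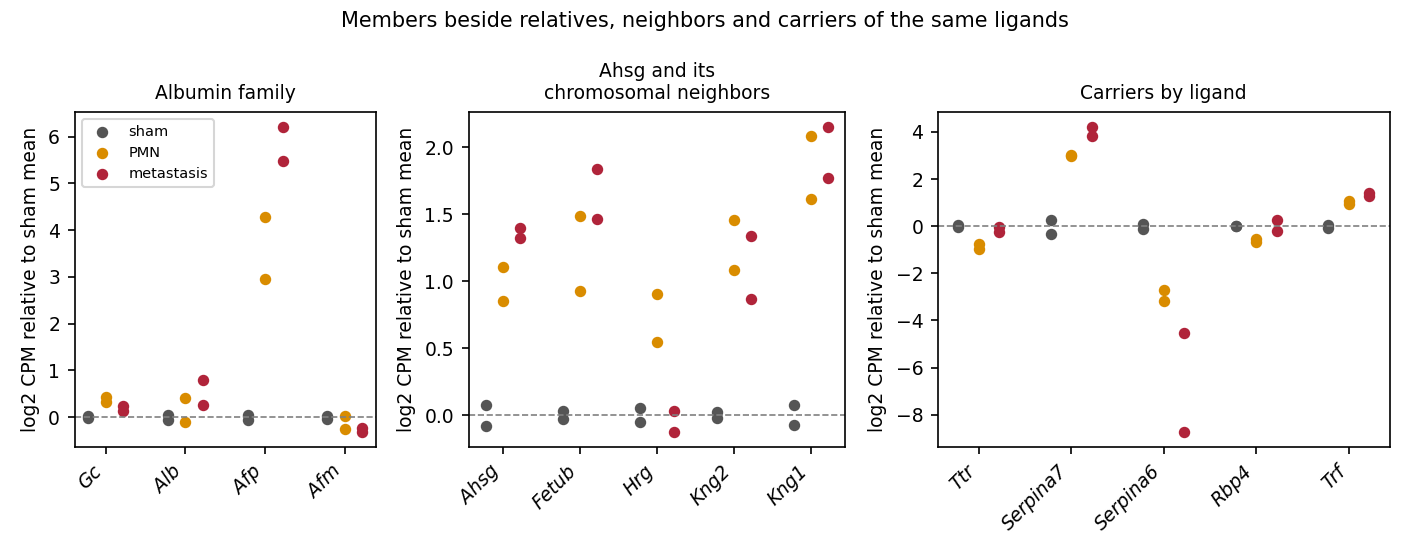
Log2 CPM of each gene relative to its mean in the sham livers (vertical axes, different in each panel), with each point a liver. The left panel holds the albumin family in chromosomal order, the middle panel Ahsg and its neighbors, and the right panel carriers grouped by what they bind. In every tumor liver Afp lies further above sham than Alb, Gc and Afm do.

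Other plasma carriers and liver proteins known or reported to be negative or neutral in the acute phase also moved both ways. Of 17 tested, 3 were called higher and 3 lower in PMN livers, and 4 higher and 4 lower in metastasis livers. Their median log2 fold changes were 0.74 and 0.20. Beside this and the other gene lists, 4.92% of all genes tested were called higher and 2.38% lower in PMN livers. In metastasis livers these shares were 6.78% and 3.95%. Among the carriers of hormones, Serpina7, which encodes the thyroxine-binding globulin, had 9.12 and 13.5 CPM in sham, 89.7 and 90.6 in PMN and 211 and 161 in metastasis livers. It rose in both groups (log2 fold change 2.99 and 4.04, edgeR adjusted p = 0.00702 and 0.00446), whereas the thyroid hormone carrier Ttr was called in neither. Serpina6, which encodes the corticosteroid-binding globulin, had 1197 and 1047 CPM in sham, 124 and 173 in PMN and 2.62 and 49.1 in metastasis livers. All 4 tumor livers were below sham, and Serpina6 was called lower in metastasis livers (log2 fold change -5.44, adjusted p = 0.0442) but not in PMN livers (-2.92, standard error 1.12, adjusted p = 0.158). Its log2 fold change in metastasis livers was -8.74 without metastasis liver 2 and -4.51 without metastasis liver 1, and it was called in 12 of 18 alternatives.

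The iron carrier Trf had 22886 and 25106 CPM in sham, 50655 and 46717 in PMN and 63711 and 57874 in metastasis livers. It rose in metastasis livers (log2 fold change 1.34, edgeR adjusted p = 0.0232) and was just outside the threshold in PMN livers (1.02, adjusted p = 0.0538), as was Ahsg. Ahsg counts were 26.4% to 29.6% of Trf counts in all 6 livers, and this narrow range follows from the choice of Trf as the nearest profile. Ambp, the precursor of bikunin and alpha-1-microglobulin, rose in PMN livers (1.04, adjusted p = 0.0406), and Serpina1a, an alpha-1-antitrypsin gene, rose in metastasis livers (1.59, adjusted p = 0.0313), although reads shared with its near-identical copies make its level uncertain. Lower in both groups were Apoa2, an apolipoprotein of high-density lipoprotein (-1.34 and -1.17, adjusted p = 0.0371 and 0.0421), Pon1, the paraoxonase bound to those particles (-1.01 and -0.89, adjusted p = 0.0367 and 0.04), and Igfals, which stabilizes circulating IGF1 (-1.38 and -2.15, adjusted p = 0.0286 and 0.00818).

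The ligands of these carriers have handling genes of their own. Of 14 tested genes of retinol storage and transport, 2 were called higher and 0 lower in PMN livers (4.92% and 2.38% of all genes). In metastasis livers 2 were higher and 2 lower (6.78% and 3.95% of all genes). These genes include Rbp2, an intracellular retinol carrier at a mean under 5 CPM, which was higher in both groups and is named after its values were seen. Lower in metastasis livers were Aldh1a1 (-3.41, edgeR adjusted p = 0.0253) and Rdh10 (-1.17, adjusted p = 0.0275), enzymes that turn retinol into retinoic acid. The metastasis livers were far apart for Aldh1a1, at 19.8 and 69.8 CPM, and its log2 fold change was between -4.59 and -2.77 over the alternatives.

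Of 10 tested genes of thyroid hormone handling and response, 0 were higher and 2 lower in each tumor group. They were Thrsp, a thyroid hormone-responsive gene of fat synthesis, which fell from 1002 and 831 CPM (sham) to 136 and 117 (PMN) and to 85.1 and 77.2 (metastasis; log2 fold change -2.86 and -3.50, edgeR adjusted p = 0.0058 and 0.00443), and Me1, the malic enzyme (-1.72 and -1.51, adjusted p = 0.0316 and 0.0336). Of 6 tested genes of vitamin D handling, Dab2, an adaptor for the uptake of carrier proteins, was higher in both groups (1.48 and 1.34, adjusted p = 0.0382 and 0.0397), and the vitamin D receptor gene Vdr, at a mean under 5 CPM and named after its values were seen, was higher in metastasis livers. Of 8 receptors that recycle or take up albumin or fetuin, 2 were higher in PMN livers, the scavenger receptor Stab1 (1.45, adjusted p = 0.0324) and Lgals3 (galectin-3; 2.45, adjusted p = 0.00702). In metastasis livers Lgals3 (3.64, adjusted p = 0.00443) and Stab2 (1.58, adjusted p = 0.0403) were higher, and Asgr2, a subunit of the asialoglycoprotein receptor of hepatocytes, was lower (-1.19, adjusted p = 0.0283). Stab2 had 89.4 and 42.1 CPM in the 2 metastasis livers against 21.5 and 22.4 in sham, its log2 fold change was 2.03 without metastasis liver 2 and 0.95 without metastasis liver 1, and it was called in 10 of 18 alternatives. Stab1 and Stab2 are genes of sinusoidal endothelial cells and macrophages, Lgals3 is a gene of macrophages among other cells, and Stab2 is itself among the endothelial markers used here. In PMN and metastasis livers the median log2 fold change was 1.43 and 1.49 over the 8 endothelial markers and 2.51 and 2.46 over the 11 macrophage markers. The part of these cells in the levels of the receptors and of Dab2 was not tested.

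Genes of the positive acute phase proteins were higher in nearly their whole number. Of 30 tested, 26 were higher and 0 lower in PMN livers, and 25 higher and 1 lower in metastasis livers, with median log2 fold changes of 3.03 and 2.79. Their share of all counts was 2.97% and 3.14% in sham, 16.9% and 19.4% in PMN and 11.0% and 16.2% in metastasis livers. The most abundant over the 6 livers, Hpx (hemopexin, the heme carrier), had 3048 and 2961 CPM in sham, 23316 and 22256 in PMN and 22707 and 25928 in metastasis livers (log2 fold change 2.92 and 3.02, edgeR adjusted p = 0.00609 and 0.00469). The lower gene was Hamp, the iron hormone hepcidin. All tumor livers were therefore above sham in positive acute phase RNA, and the PMN livers, in which Ttr and Rbp4 were lowest, had the highest summed level (186995 and 196998 CPM, against 124716 to 163359 in metastasis livers). The part of this in the levels of Ttr and Rbp4 was not tested.

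Of 26 transcription factors known to act on liver secretory genes, 1 was higher and 2 lower in PMN livers. In metastasis livers 3 were higher and 4 lower. Over all genes tested, 7.3% were called in PMN livers and 10.7% in metastasis livers. Stat3, which carries the interleukin-6 signal, rose in both (log2 fold change 1.82 and 1.03, edgeR adjusted p = 0.00785 and 0.0236). Cebpa, a factor of the resting hepatocyte, had 168 and 271 CPM in sham, 57.7 and 77.7 in PMN and 172 and 106 in metastasis livers. It was thus lowest in the PMN livers, where it was called (-1.70, adjusted p = 0.0423), and was not called in metastasis livers (-0.66, adjusted p = 0.258). Hlf, a clock-controlled factor, was lower in both (-1.12 and -1.08, adjusted p = 0.038 and 0.0343). In metastasis livers Cebpd (2.76, adjusted p = 0.0421) and Foxa3 (1.37, adjusted p = 0.0253) were higher, and Ppara (-1.38, adjusted p = 0.0301), Nfe2l1 (-1.06, adjusted p = 0.0473) and Tef, named after its values were seen, were lower. Cebpd had 5.64 and 1.31 CPM in the 2 sham livers, and its log2 fold change was between 2.05 and 4.16 over the alternatives.

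Markers of other cells also differed between the groups. The 12 neutrophil markers were all called higher in both tumor groups, with a summed level of 3.87 and 5.12 CPM in sham, where 3 of the 12 were at 0 in each, 297 to 653 CPM in PMN and 439 to 1110 CPM in metastasis livers. Macrophage markers were higher for 10 of 11 in PMN and 9 of 11 in metastasis livers (198 to 200, 943 to 1220, and 640 to 1166 CPM in the 3 groups), and endothelial markers for 4 and 3 of 8 (95.9 to 107, 278 to 310, and 224 to 324 CPM). Erythroid markers were higher for 0 and 7 of 7 (228 to 410, 258 to 409, and 1202 to 1726 CPM), proliferation genes for 2 and 6 of 8, stellate cell and fibroblast markers for 0 and 3 of 9, and markers of cholangiocytes and other epithelium for 0 and 2 of 7. None of 6 T and NK cell markers or 5 B cell markers was called in either comparison. None of these lists had a called lower gene. The part of CT26 cells in the markers' levels in metastasis livers was not tested. The carriers are expressed mainly by hepatocytes, and the part of a changed cell composition in the carriers' levels was not tested.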

How the data were processed

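RNA of 6 mouse livers was analyzed, 2 per group, which the series calls biological replicates, so p-values measure the spread between these livers. The authors aligned reads to mm10 with HISAT2 2.1.0, counted uniquely mapped exon reads with featureCounts (Subread 2.0.6) and deposited raw counts per gene. The authors also deposited TPM values, which divide by the length of the gene and by the sum over the library. The annotation and the use of strand are not given in the sources used here. Library totals lay between 32838321 and 43368309 counts. Everything after the deposited tables was computed with R 4.3.3, edgeR 4.0.16 (TMM, filterByExpr with a count minimum of 10, quasi-likelihood test, Benjamini-Hochberg adjustment over 16370 genes), limma 3.58.1, DESeq2 1.42.0 and Python 3.11.15, and tested on simulated data.

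The carriers and all gene lists were chosen with earlier results of these data known. Genes beside the carriers were named by a rule: from each list, at most 3 higher and 3 lower called genes of a comparison, taken by the size of the change at a mean of at least 5 CPM, or the most abundant gene, and the 2 nearest profiles of each carrier at a mean of at least 10 CPM. Not every gene that the rule allows is named, exceptions are marked, and some genes of the lists are not reported here. Symbols were matched to RefSeq's GRCm38.p6 tables. The 18 alternatives covered the tool, the filter, the scaling, the unit, the pseudocount, the groups in the fit, a replicate block and each liver left out.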

Additional observations from a re-analysis of the deposited data

How the results depend on the processing

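The carriers' directions held in most alternatives. On library sizes without TMM, the median over all genes moved to -0.25 in PMN and -0.23 in metastasis livers against sham, and on log2(TPM + 1) to -0.10 and -0.15, so fold changes on those scales are lower throughout. There, the carriers' median became -0.23 (PMN, library size), -0.16 (metastasis, library size) and, in each of the 3 limma analyses of TPM, -0.17 (PMN) and -0.18 (metastasis). The PMN median was also -0.18 without PMN liver 1. Directions turned for Alb in PMN livers (-0.10 on library size, -0.035 in the 3 limma analyses, -0.10 without PMN liver 1, within -0.10 to 0.43 over the livers left out), Afm in PMN livers (0.056 without PMN liver 2), Rbp4 in metastasis livers (-0.22 on library size, -0.25 with limma, -0.19 without metastasis liver 1, within -0.19 to 0.28) and Gc in metastasis livers (-0.093 on library size, -0.11 with limma). None of these was called, and the cause was not tested. On TPM, a scale added for this tally after the data were seen, 1 carrier instead of 3 was higher without overlap in metastasis versus sham livers and 4 instead of 2 were lower, and 2 instead of 1 were lower in metastasis versus PMN livers. In PMN livers, 1 carrier was called higher with DESeq2, without a filter on low counts and with only the 2 groups compared, and 1 lower with DESeq2 and on library size, and 2 lower with only the 2 groups. Over all genes, those analyses called 1662 higher and 1049 lower (DESeq2), 866 and 395 (no filter), 569 and 801 (library size) and 2548 and 2223 (only the 2 groups). In metastasis livers, 0 were called higher with limma (where 685, 804 and 477 of all genes were higher and 1553, 1476 and 1112 lower) and with only the 2 groups (276 and 116). Between metastasis and PMN livers, DESeq2 called 1 higher, among 234 of all genes. Leaving out 1 liver at a time gave 0 to 2 carriers called higher in each of the 3 comparisons, 0 to 2 lower in PMN versus sham livers and 0 to 0 lower in the others. All of the calls of 2 came without a metastasis liver, and in PMN versus sham livers without either 1 of them. Over all genes, the number called higher was 806 and ranged from 0 to 2548 over the alternatives in PMN versus sham livers, was 1110 and ranged from 0 to 3010 in metastasis versus sham livers, and was 0 and ranged to 1312 in metastasis versus PMN livers, and the number called lower was 389 (0 to 2223), 646 (0 to 2683) and 0 (0 to 1572). When a lone liver is left in a group, it is assumed to vary like the other groups. The replicate numbers are shared by the labels but did not pair the livers (correlations of deviations -0.03, 0.08 and 0.04 over 16370 genes), and with a replicate block 0, 1 and 0 carriers were called higher in the 3 comparisons and 0 lower, with medians of 0.02, 0.11 and 0.37. The replicate block called 673 higher and 259 lower genes in PMN livers. The 44 calls of genes named beside the carriers kept their direction in all alternatives and were kept as calls in 7 to 16 of the 18, none of them without sham liver 1 or 2, and 8 were lost with the replicate block (Kng2 and Pon1 in both comparisons, Ambp, Cebpa and Hlf in PMN livers and Nfe2l1 in metastasis livers). Of these genes, Afp was called in 15 and 16 of 18 alternatives in PMN and metastasis livers, Serpina7 in 14 and 16, Fetub in 10 and 15 and Kng2 in 8 and 7. The 44 calls do not cover the nearest profiles other than Trf, nor Rbp2, Vdr, Tef and Hamp, which were not followed over the alternatives. Counting error is small at this depth for the carriers, and no alternative had more than 2 livers in a group.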
